A study of Sus scrofa with 6 samples.

Results

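The genes described here are those of mitosis and DNA replication, followed in porcine midbrain-like organoids (pMLOs) by single-cell RNA sequencing. They were chosen by name: 38 genes were listed, and 33 of them were found by symbol among the 30477 genes of the count matrices. Of the 29 mitotic genes listed, 26 were found, and of the 9 S-phase genes listed, 7 were found. MKI67, AURKA, MCM5 and RRM2 were not analysed here. NUSAP1 had no symbol in the files but was matched by its gene identifier, and its values are given apart from those of the 33. All organoids came from 1 porcine embryonic stem cell line, IVF_1_ pESC_FIW, derived from blastocysts fertilised in vitro, so differences between lines cannot be seen here. Neural induction used dual SMAD inhibition (SB431542 and Noggin) with SHH-C24II and CHIR99021, followed by FGF8, later with BDNF and ascorbic acid. Matrigel embedding came after day 11. A terminal medium with BDNF, GDNF, ascorbic acid, db-cAMP and DAPT on an orbital shaker followed it. By this protocol, organoids of day 11 were still in medium with FGF8 and had received neither the embedding nor GDNF, db-cAMP and DAPT. Differences of the later days from day 11 thus cannot be told apart from these changes of culture. The 3 groups were organoids collected on day 11 (D11), day 28 (D28) and day 45 (D45), with 2 libraries each (A and B), described by the study as biological duplicates.

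A cell that divides copies its DNA in S phase and separates the copies in mitosis. The replicative helicase MCM2 to MCM7, the sliding clamp PCNA and the enzymes that make thymidine nucleotides are needed in S phase, and their transcripts rise before it under E2F transcription factors. Cyclin B with CDK1, the spindle checkpoint, the kinetochore and the spindle motors act later, and their transcripts rise in G2 and mitosis, largely through CHR promoter elements and CCAAT boxes. In the ventral midbrain, floor plate progenitors cycle while they expand and leave the cycle as they become neurons, whereas glial precursors and mesenchymal cells can go on dividing.

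A unique molecular identifier (UMI) marks 1 captured transcript, and levels below are UMIs of a gene scaled to 1000000 UMIs of the same barcodes (CPM). After the filters, 13870 to 21553 barcodes per library and 106805311 to 180034791 UMIs per library were kept. Barcodes called neuron-like made up 10.64 and 9.25% of the 2 D11 libraries, 36.5 and 48.9% at D28 and 58.4 and 50.7% at D45, although every library is labelled as midbrain dopaminergic neurons. The D45 shares depended on the clustering, at 71.5 and 57.5% with a resolution of 0.4 and 38.5 and 33.9% with cell cycle genes kept in. They depended on depth too. Among barcodes with 2000 UMIs or more, 4430 of 9225 and 5098 of 11055 were neuron-like at D28. At D45 these counts were 4299 of 10448 and 4221 of 11093. Between 11.3 and 48.0% of kept barcodes had under 2000 UMIs. The libraries shared few barcode sequences, between 55 and 119 in any pair.

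Both groups of genes were highest at D11. The 26 mitotic genes together reached 2326 and 2110 CPM in the D11 libraries A and B, 631.6 and 469.8 CPM at D28, and 443.4 and 534.2 CPM at D45. The D11 mean of 2218 ± 153.2 CPM (SD, n = 2) was 4.03 times the D28 mean of 550.7 ± 114.4 CPM and 4.54 times the D45 mean of 488.8 ± 64.2 CPM, and the D28 and D45 libraries overlapped. For the 7 S-phase genes the levels were 449 and 438.1 CPM at D11, 238 and 228 CPM at D28, and 145.9 and 137.4 CPM at D45. Here the 3 days did not overlap: the D11 mean was 1.90 times that of D28, and the D28 mean was 1.65 times that of D45.

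The balance between the groups differed between days. There were 5.18 and 4.82 mitotic UMIs per S-phase UMI in the D11 libraries, 2.65 and 2.06 at D28, and 3.04 and 3.89 at D45. By these sums the ratio was lowest in both D28 libraries. It was given no test, since 2 libraries against 2 cannot reach an exact two-sided permutation p below 0.33. Leaving out TOP2A from the mitotic sum and PCNA from the S-phase sum, the members with the most UMIs, gave mean ratios of 6.41, 3.86 and 4.51 for the 3 days, and the D28 libraries then differed between themselves, at 4.99 in A and 2.73 in B, with A above both D45 libraries (4.06 and 4.96).

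In the comparison of D28 with D11, 30 of the 33 genes were lower and none was higher (edgeR quasi-likelihood test on UMI sums per library, Benjamini-Hochberg adjusted p under 0.05), against 10.6% of all 22192 genes tested that were called lower and 12.5% that were called higher. The median difference was -1.95 on the log2 scale over the 33 genes and 0.03 over all genes. The fall reached 24 of 26 mitotic genes (median -2.14) and 6 of 7 S-phase genes (median -1.36). All 33 genes were higher in both D11 libraries than in both D28 libraries, and the share of all genes that were so is not given here. DESeq2 called 32 of the 33 lower, beside 12.9% of the genes with an adjusted p. Since the sums run over whole libraries, they do not separate fewer dividing cells from less RNA of these genes per cell. Per barcode, the share of deep barcodes (2000 UMIs or more) with 3 or more mitotic UMIs also fell. After thinning each barcode at random to 500 UMIs, it was 12.7 and 11.3% at D11 and 2.18 and 1.9% at D28. The part of either in the fall was not tested. Without D11 library A or without D11 library B fewer of the 33 were called, with nearly the same medians (-1.97 and -1.94). Other gene groups moved over the same step. In barcodes with 2000 UMIs or more, 6 genes of stress and RNA quality together were at 557.4 and 575.1 CPM at D11 and 1552 and 1132 CPM at D28, and the 55 ribosomal protein genes at 113159 and 121766 CPM and then 86404 and 63850 CPM. The stress genes were also higher at D28 in barcodes under 2000 UMIs (1272 and 769.9 against 440.1 and 508.8 CPM). The part of either group in the difference was not tested. The change of medium and the Matrigel embedding between D11 and D28 cannot be told apart from the day.

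Comparing D45 with D11, 32 of 33 genes were lower, none was higher and the median was -2.60, against 17.4% of all genes called lower and 17.3% called higher. Comparing D45 with D28, 4 of 33 were lower and none was higher, against 4.93% of all genes lower and 4.47% higher. All 4 were S-phase genes: 4 of 7 S-phase genes passed the test, with a median of -0.63, and 0 of 26 mitotic genes did, with a median of -0.34. By an unadjusted p under 0.05, 6 S-phase and 5 mitotic genes were past the threshold, 11 of 33 in all, beside 31.3% of all genes. DESeq2 called 5 of the 33, beside 10.6% of the genes with an adjusted p: 4 S-phase genes and the mitotic gene UBE2C (-1.61, DESeq2 adjusted p = 0.011). Whether the S-phase and mitotic genes differed from each other in this step was not tested. The 4 calls were fragile: they did not hold without D45 library A or without D45 library B. Fewer genes were called without either D11 library, and more without D28 library B. The share of all genes called in those fits is not given here.

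**Figure D1:**
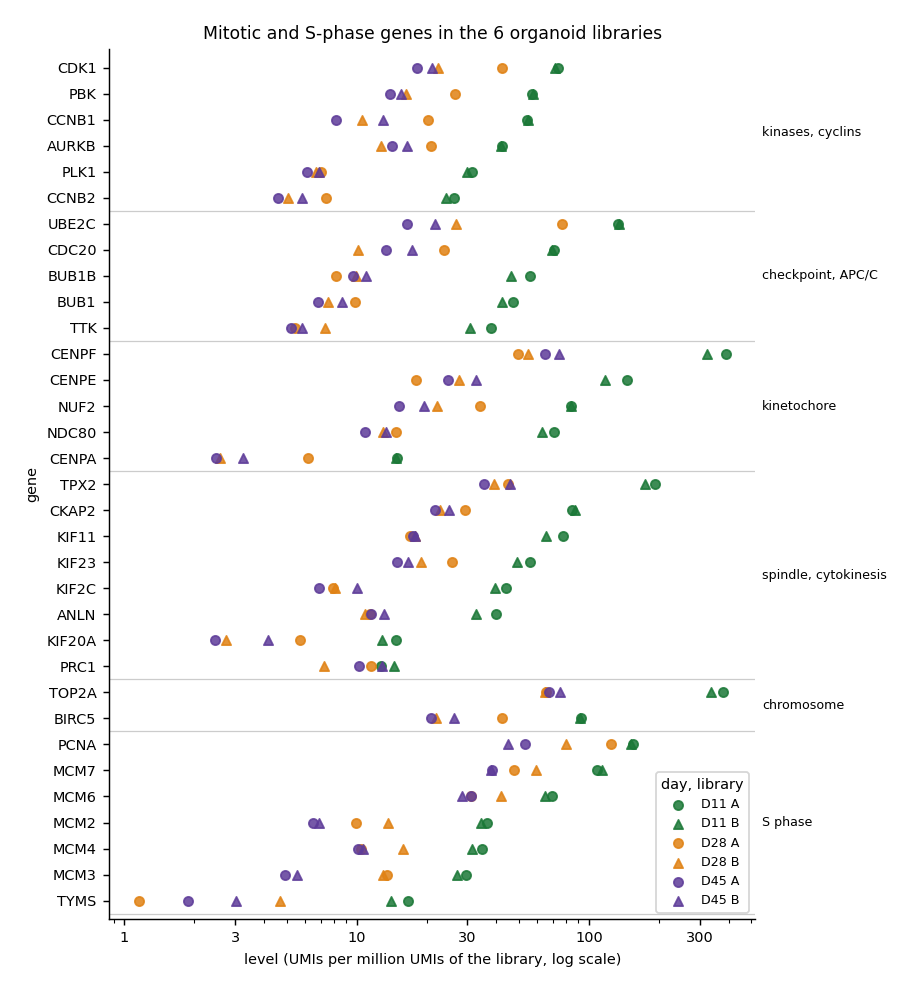
Level of each of the 33 genes in the 6 libraries, in CPM on a log axis, with genes grouped by role, colours for days and circles and triangles for libraries A and B. The D11 points stand to the right of all others in every row but that of PRC1, and the D28 and D45 points overlap in most mitotic rows.

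**Figure D2:**
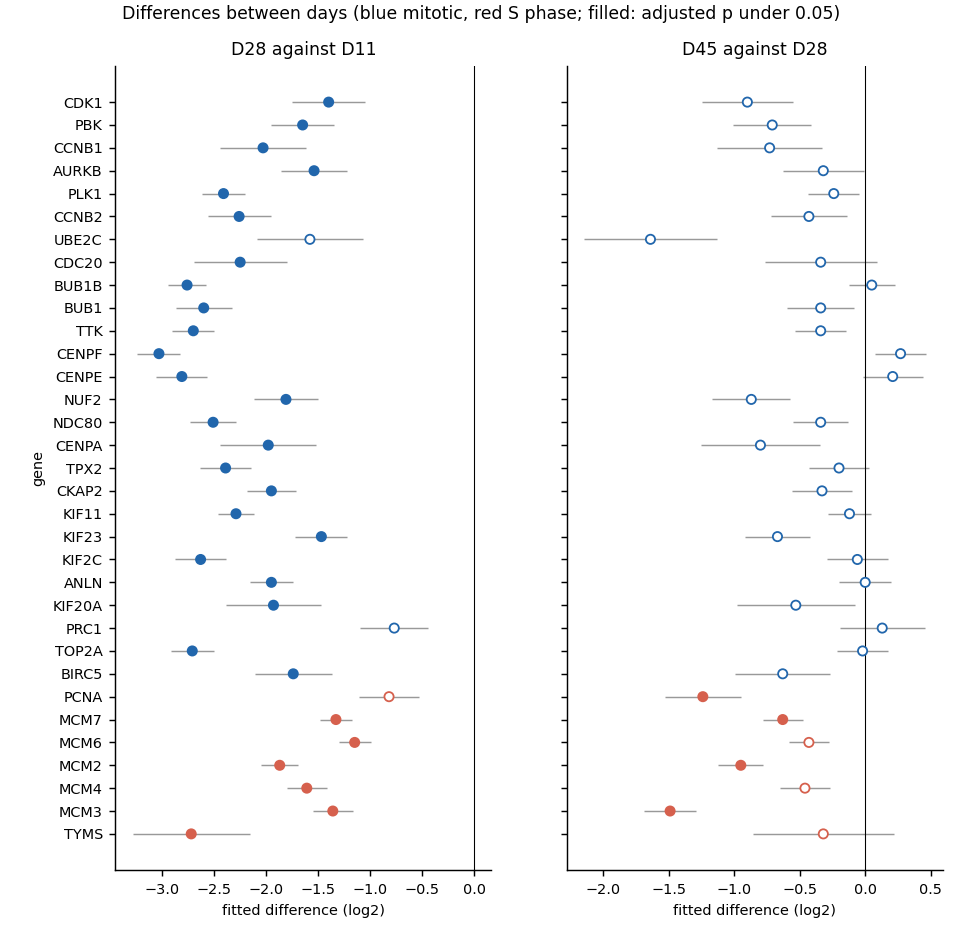
Fitted log2 difference of each gene between D28 and D11 (left) and between D45 and D28 (right), with standard errors as bars, blue for mitotic and red for S-phase genes. Filled points passed an adjusted p of 0.05: 30 genes on the left, and on the right MCM2, MCM3, MCM7 and PCNA.

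Among the kinases and cyclins that drive entry into mitosis, all 6 genes found fell from D11 to D28 and from D11 to D45. CDK1, the kinase that starts mitosis, was at 73.9 and 71.8 CPM at D11, 42.1 and 22.4 CPM at D28, and 18.3 and 21.1 CPM at D45. Its D28 library A lay near the middle between D11 and D45, and its D28 library B lay close to D45. The fitted difference from D11 was -1.40 ± 0.35 (log2 ± SE, edgeR adjusted p = 0.031) at D28 and -2.29 ± 0.36 at D45 (edgeR adjusted p = 0.0038). CCNB1, the cyclin partner of CDK1, fell to 20.4 and 10.6 CPM at D28 and 8.17 and 13.0 CPM at D45 from 54.1 and 54.7 CPM at D11. PLK1, which acts in spindle assembly and mitotic exit, showed almost equal D28 libraries (7.05 and 6.72 CPM) and fell by 2.41 on the log2 scale from D11. CCNB2, AURKB (the kinase of the chromosomal passenger complex) and PBK, a mitotic kinase, had D45 differences of -2.69, -1.86 and -2.36.

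The spindle checkpoint genes BUB1, BUB1B and TTK fell by 2.60, 2.76 and 2.70 on the log2 scale at D28. They monitor the attachment of chromosomes and restrain the anaphase-promoting complex. BUB1B was at 55.7 and 46.3 CPM at D11, 8.16 and 9.91 CPM at D28 and 9.66 and 10.9 CPM at D45, with D28 and D45 close to each other. Of the genes that act on the complex itself, CDC20, its coactivator, fell (-2.25). UBE2C, its ubiquitin-conjugating enzyme, was at 133.5 and 135.4 CPM at D11, 76.5 and 26.8 CPM at D28, and 16.5 and 21.8 CPM at D45. D28 library A held 2.85 times the level of library B, the widest gap of any mitotic gene between duplicates of 1 day. UBE2C missed the threshold at D28 with edgeR (-1.58 ± 0.51, edgeR adjusted p = 0.064) but not with DESeq2 (-1.59, DESeq2 adjusted p = 0.0079), and it passed it at D45 (-3.22 ± 0.54, edgeR adjusted p = 0.0048).

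All 5 centromere and kinetochore genes fell at both later days. CENPF, a large kinetochore protein, had the steepest fall at D28, from 389.1 and 324 CPM to 49.5 and 54.9 CPM (-3.03 ± 0.21, edgeR adjusted p = 0.00063), and was at 64.6 and 74.7 CPM at D45. CENPE, the kinetochore kinesin, went from 146 and 117.9 CPM to 18.1 and 27.5 CPM and then 24.6 and 32.7 CPM. NDC80 and NUF2, subunits of the complex that binds microtubules, fell by 2.51 and 1.81 at D28 on the log2 scale. CENPA, the histone of the centromere, was the least abundant of the group and had unequal D28 libraries (6.15 and 2.59 CPM).

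Of the 8 spindle and cytokinesis genes found, 7 fell at both days. TPX2, which nucleates spindle microtubules, went from 193.5 and 175 CPM to 44.7 and 39.0 CPM at D28 and 35.2 and 45.9 CPM at D45. The motors KIF11, KIF2C, KIF20A and KIF23 had D45 differences between -2.14 and -2.70. ANLN, a scaffold of the contractile ring, was at 11.4 and 10.8 CPM at D28 and 11.6 and 13.2 CPM at D45 and fell by 1.95 from D11 on both days. PRC1, which crosslinks antiparallel microtubules of the central spindle, was the exception. It was at 12.8 and 14.6 CPM at D11, 11.5 and 7.22 CPM at D28 and 10.3 and 12.9 CPM at D45, with D11 and D45 overlapping. Its differences from D11 were -0.77 ± 0.32 at D28 (edgeR adjusted p = 0.13) and -0.64 ± 0.32 at D45 (edgeR adjusted p = 0.17).

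TOP2A, the topoisomerase that disentangles sister chromatids, was the mitotic gene with the most UMIs among the 26. Its level was 377.6 and 335.1 CPM at D11, 65.2 and 64.7 CPM at D28 and 67.1 and 75.2 CPM at D45, so that D28 and D45 were close to each other (-2.71 ± 0.20 for D28 against D11, edgeR adjusted p = 0.000765). BIRC5, of the chromosomal passenger complex, was at 92.8 and 91.8 CPM at D11, 42.2 and 22.0 CPM at D28 and 20.9 and 26.3 CPM at D45. NUSAP1, a spindle-associated protein, was at 479.8 and 475.6 CPM at D11, 233.5 and 205.6 CPM at D28 and 243.7 and 225.9 CPM at D45. Its fall (-1.37 ± 0.22 at D28 and -1.44 ± 0.22 at D45) was smaller than the median of the 33 genes.

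Among the S-phase genes, the levels of several fell in both steps, and the calls of the second step were fragile, as given above. MCM3, of the replicative helicase, was at 29.6 and 27.2 CPM at D11, 13.5 and 12.9 CPM at D28 and 4.91 and 5.53 CPM at D45, a stepwise fall with close duplicates. From D28 to D45 it fell by 1.49 ± 0.20 on the log2 scale (edgeR adjusted p = 0.011). MCM2 was at 36.5 and 34.4 CPM, 9.91 and 13.6 CPM, and 6.52 and 6.86 CPM on the 3 days, and fell by 0.95 in the second step (edgeR adjusted p = 0.024). MCM7 was at 108.3 and 114.3 CPM, 47.4 and 59.5 CPM, and 38.4 and 37.9 CPM, and its second step lay at the threshold (-0.63 ± 0.15, edgeR adjusted p = 0.0496). PCNA, the clamp that holds the polymerase on DNA, was at 154.3 and 152 CPM at D11, 124.4 and 79.7 CPM at D28 and 53.1 and 44.9 CPM at D45. At D28 it missed the threshold with edgeR (-0.82 ± 0.29, edgeR adjusted p = 0.081) and passed it with DESeq2 at about the same difference (-0.83, DESeq2 adjusted p = 0.042). It fell by 1.24 between D28 and D45 (edgeR adjusted p = 0.044). MCM4 and MCM6 fell at D28 (-1.61 and -1.15) and not past the threshold afterwards. TYMS, which makes thymidylate, had few UMIs and the most unequal D28 libraries (1.15 and 4.66 CPM).

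The duplicates of D28 differed by group of genes. In D28 library A, 20 of 26 mitotic genes but 2 of 7 S-phase genes had a higher level than in library B, with median ratios of 1.34 and 0.743. At D45, library A was lower than library B in all 26 mitotic genes, with a median ratio of 0.804. The 6 fibroblast markers had the same direction on both days, at 1312 and 399.8 CPM in the deep barcodes of D28 A and B and at 900.9 and 2487 CPM in those of D45 A and B. The 8 neuron markers also had it (3382 and 2613, then 2154 and 2185 CPM). The 8 oligodendrocyte markers had the opposite direction on both days (46.6 and 99.3, then 1115 and 838.7 CPM). Other marker lists went either way. The part of these lists in the difference was not tested. At D11 the ratios of A to B lay between 0.878 and 1.24 in all 33 genes. The share of all genes higher in A than in B is not given here for any day. The counts of 1 day all rest on the same 2 libraries, so the genes are not separate observations.

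Restricted to barcodes with 2000 UMIs or more, 30, 2 and 32 of the 33 genes were lower in D28 against D11, D45 against D28 and D45 against D11, beside 9.9, 4.11 and 15.3% of all genes. In barcodes under 2000 UMIs alone, the counts were 26, 0 and 32, beside 4.26, 0.237 and 8.73% of all genes. The day differences were thus seen in both depth classes taken alone, with medians for D28 against D11 of -1.91 and -2.17. For D45 against D28 the medians were -0.31 in deep and -0.64 in shallow barcodes, and those of the S-phase genes -0.57 and -0.95. The 0 calls of the shallow class in this step thus came with larger median differences than in the deep class, and 12 of its 33 genes had an unadjusted edgeR p under 0.05, beside 19% of all genes.

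The promoters of the members show what the choice by name did not use. For each protein-coding gene with a placed start in RefSeq on Sscrofa11.1, the build of the files, the window from 250 bases before to 50 bases after the annotated gene start was searched on both strands for the CHR element (TTTGAA or TTCGAA), the CCAAT box (CCAAT) and an E2F core (GCGGGAA or TTGGCGC or TTCGCGC). A CHR was present in 18 of 26 mitotic genes and 1 of 7 S-phase genes, beside 15.6% of all 19531 promoters. A CCAAT box was present in 19 of 26 and 4 of 7, beside 35.4% of all. An E2F core was present in 5 of 26 and 3 of 7, beside 11.5% of all. Both a CHR and a CCAAT box were found in 13 of 26 mitotic genes and in 6.14% of all promoters. These are matches of letters in a window set by the annotated start, not shown binding sites. In the other mitotic genes of a wider list, 21 of 53 promoters held a CHR and 18 an E2F core, and among other replication genes the numbers were 10 and 31 of 57.

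To set the elements of mitotic promoters beside the values, 3 promoters with a CHR and CCAAT boxes are printed from 5′ to 3′ on the gene's own strand, with every match in capitals. They are those of UBE2C (chr17:48018153-48018452, plus strand), CDK1 (chr14:64233695-64233994, plus strand, with E2F cores as well) and TOP2A (chr12:22001050-22001349, plus strand).
UBE2C: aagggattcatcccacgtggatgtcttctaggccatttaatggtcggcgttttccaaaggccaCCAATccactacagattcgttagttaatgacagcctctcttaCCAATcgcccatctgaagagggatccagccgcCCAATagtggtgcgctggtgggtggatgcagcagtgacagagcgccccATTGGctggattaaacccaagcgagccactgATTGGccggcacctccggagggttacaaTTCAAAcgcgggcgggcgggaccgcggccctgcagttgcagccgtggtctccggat
CDK1: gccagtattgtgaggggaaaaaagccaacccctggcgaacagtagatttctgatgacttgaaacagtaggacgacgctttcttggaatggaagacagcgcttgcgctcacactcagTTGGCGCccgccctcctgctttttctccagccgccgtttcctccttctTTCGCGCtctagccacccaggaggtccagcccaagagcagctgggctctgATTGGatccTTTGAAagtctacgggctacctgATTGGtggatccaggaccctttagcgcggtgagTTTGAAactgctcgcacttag
TOP2A: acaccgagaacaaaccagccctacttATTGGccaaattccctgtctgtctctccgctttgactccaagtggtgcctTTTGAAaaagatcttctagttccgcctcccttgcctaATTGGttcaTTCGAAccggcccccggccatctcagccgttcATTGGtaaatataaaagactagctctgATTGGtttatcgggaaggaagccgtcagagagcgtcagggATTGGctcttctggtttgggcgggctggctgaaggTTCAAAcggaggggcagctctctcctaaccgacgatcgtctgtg
UBE2C and CDK1 had unequal D28 libraries and TOP2A nearly equal ones, and each of them holds a CHR and CCAAT boxes. Only CDK1 of these holds E2F cores. CCNB1 and KIF20A, also with unequal D28 libraries, hold CCAAT boxes and no CHR. PRC1 (chr7:55869499-55869798, plus strand), the mitotic gene that passed the threshold on neither later day, also holds a CHR and a CCAAT box.
PRC1: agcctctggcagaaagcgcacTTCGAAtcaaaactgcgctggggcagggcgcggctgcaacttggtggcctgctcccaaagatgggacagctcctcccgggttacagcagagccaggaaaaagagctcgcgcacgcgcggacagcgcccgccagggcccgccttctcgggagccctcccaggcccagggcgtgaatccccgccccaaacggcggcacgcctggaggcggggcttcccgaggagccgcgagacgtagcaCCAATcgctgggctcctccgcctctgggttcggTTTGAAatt
For the S-phase genes, MCM3 (chr7:46104376-46104675, minus strand), which fell in both steps, and MCM6 (chr15:15923388-15923687, plus strand), which fell in the first, hold E2F cores. In MCM6 each E2F run in capitals holds 2 overlapping matches, TTGGCGC and, on the other strand, TTCGCGC.
MCM3: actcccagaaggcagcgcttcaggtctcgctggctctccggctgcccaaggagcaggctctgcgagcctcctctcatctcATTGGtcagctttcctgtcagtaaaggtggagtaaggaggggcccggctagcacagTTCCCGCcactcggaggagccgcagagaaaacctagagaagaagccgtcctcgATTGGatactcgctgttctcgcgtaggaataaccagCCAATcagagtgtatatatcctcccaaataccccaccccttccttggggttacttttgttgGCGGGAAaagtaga
MCM6: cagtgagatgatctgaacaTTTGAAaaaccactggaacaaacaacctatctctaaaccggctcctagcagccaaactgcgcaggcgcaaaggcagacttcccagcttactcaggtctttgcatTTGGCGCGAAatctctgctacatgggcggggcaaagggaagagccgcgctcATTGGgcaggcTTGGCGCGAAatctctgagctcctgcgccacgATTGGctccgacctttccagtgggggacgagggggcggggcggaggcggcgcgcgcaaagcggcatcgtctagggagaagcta
MCM2, MCM7 and PCNA, also called lower in D45 against D28 over all kept barcodes, had no E2F core of these letters in the window.

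Barcodes with few UMIs carried the mitotic genes at nearly the level of deep barcodes at D11 and D28 and at a lower level at D45. At D11 the mitotic level was 2313 CPM under 2000 UMIs and 2327 CPM over that limit in library A, and 2093 and 2110 CPM in library B. At D28 the pairs were 596.7 and 632.9 CPM in A and 478.2 and 469.6 CPM in B. At D45 the shallow barcodes were lower, at 347.3 against 451.1 CPM in A and 410.3 against 541.2 CPM in B, or 0.77 and 0.758 of the deep level. For the S-phase genes the level under 2000 UMIs was 0.769 and 0.868 of that over it at D11, 1.08 and 0.874 at D28, and 0.776 and 0.76 at D45. The shallow barcodes gave 1264 to 11854 mitotic UMIs and 528 to 2163 S-phase UMIs per library, and their median depth was 663 to 873 UMIs, against 9198 to 11412 in the deep class.

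**Figure D3:**
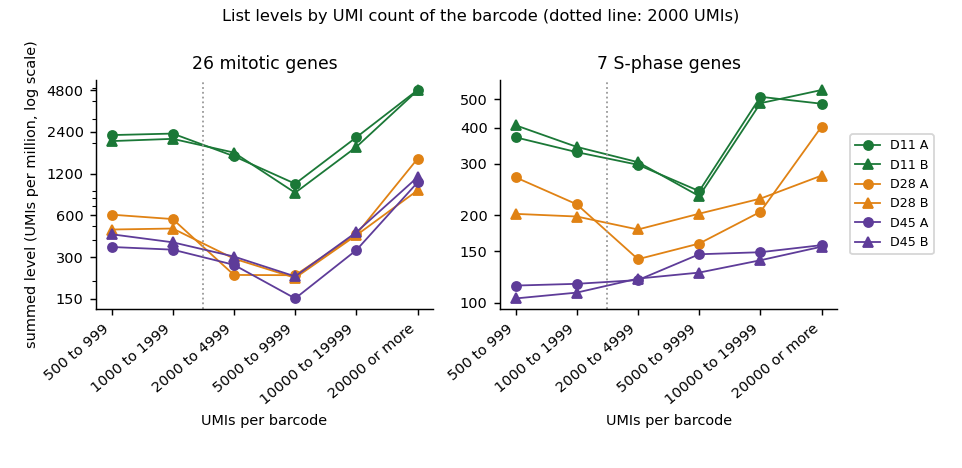
Summed level of the 26 mitotic genes (left) and the 7 S-phase genes (right), in CPM on log axes, by the number of UMIs of the barcode, 1 line per library. In the mitotic panel the lowest point of all 6 libraries is at 5000 to under 10000 UMIs and the highest at 20000 or more.

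The level did not move in 1 direction with depth. In D11 libraries A and B the mitotic level was 2279 and 2062 CPM in barcodes of 500 to under 1000 UMIs, was 1015 and 873.4 CPM at 5000 to under 10000 UMIs, and reached 4824 and 4792 CPM at 20000 UMIs or more. At D45 the same 3 bands gave 354.7 and 438.2, then 150.7 and 217.4, then 1038 and 1132 CPM. The S-phase level at D45 was 114.4 and 103.3 CPM in the shallowest band and 157.6 and 155.7 CPM in the deepest. The share of neuron-like barcodes also differed between bands: at D45 it was 84.2 and 76.9% in the shallowest band and 13.4 and 15.7% in the deepest, and at D11 it was 11.3 and 4.12% and then 24.95 and 22.1%. Its part in the levels was not tested.

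Gene by gene, the fit of the shallow against the deep sums within each library called 18 of 33 genes lower and 0 higher at D11, beside 19.6 and 4.53% of all 22209 genes. At D28 it called 12 lower and 1 higher, beside 17.4 and 8.37%, and at D45 26 lower and 1 higher, beside 21.3 and 11.5%. These counts depend on the UMI limit, the test and the scaling. With a limit of 5000 UMIs the D28 count was 30, beside 25.6% of all genes lower, and with every deposited barcode it was 21, beside 20.7%. With a limit of 1000 UMIs the counts of the 3 days were 3, 6 and 14, beside 2.12, 7.54 and 10.4%. DESeq2 called 10 at D11 and 7 at D28, beside 13.5 and 13.7% of the genes with an adjusted p. With TMM factors the median of all genes was -0.19, 0.00 and -0.05 on the 3 days and that of the members -0.46, -0.47 and -0.70. With library totals alone, an alternative added after the data were seen, the medians of all genes were 0.27, 0.34 and 0.20, and 2, 1 and 16 members were lower, beside 4.83, 6.32 and 11.8% of all genes, and 3, 3 and 1 higher, beside 20.3, 23.2 and 22.7%. Relative to the median of all genes, the members stood at -0.27, -0.47 and -0.65 by TMM and at -0.26, -0.47 and -0.64 by library totals. The 55 ribosomal protein genes, which make up a large share of UMIs, were lower in the shallow class in all 6 libraries (for example 64750 against 113159 CPM in D11 A). The 8 neuron markers together were at 3483 and 3482 CPM in the shallow and 2154 and 2185 CPM in the deep D45 barcodes, at 3141 and 2865 against 3382 and 2613 CPM at D28, and at 1609 and 1387 against 1229 and 1346 CPM at D11. At D45 the 8 oligodendrocyte markers were at 523.5 and 420.7 CPM in the shallow and 1115 and 838.7 CPM in the deep class, and the 6 fibroblast markers at 270 and 665.9 against 900.9 and 2487 CPM. The part of these lists in the contrast was not tested. Fewer members were called at D11 without D11 library A or B, at D28 without D28 library A, and at D45 without D45 library A or B. The share of all genes called in those fits is not given here.

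Of the 5 kinetochore genes, 4, 4 and 5 were lower in shallow barcodes on the 3 days. CENPF was at 285.5 and 279.2 CPM under 2000 UMIs and 390.2 and 325.5 CPM over it at D11, and at 40.2 and 46.5 against 66.6 and 76.3 CPM at D45. CENPE was at 114.7 and 100.8 against 146.3 and 118.5 CPM at D11, 16.3 and 24.6 against 18.1 and 27.6 CPM at D28, and 11.6 and 14.8 against 25.7 and 33.7 CPM at D45. The gap widened between D28 and D45 by -0.93 ± 0.22 on the log2 scale (edgeR adjusted p = 0.037). CENPE was the only member past the threshold for a difference of its gap between days: 0, 1 and 0 members passed for D28 against D11, D45 against D28 and D45 against D11, beside 0.176, 1.36 and 2.72% of all genes. On simulated counts this test of D45 against D11 called 25 of 50 genes lowered to 0.25 and 0 of 50 lowered to 0.5. It called 1 of 50 genes raised 2.0 times and 29 of 50 raised 4.0 times. A gap that did not pass can thus still differ between days. By an unadjusted p under 0.05 the counts were 4, 5 and 4 of 33, beside 7.99, 11.3 and 12.5% of all genes. Without D45 library A or B, CENPE was not called. MCM7 was lower in shallow barcodes in all 6 libraries, for example 74.3 against 108.6 CPM in D11 A and 22.5 against 39.7 CPM in D45 A.

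By CPM, many mitotic genes went the other way at the earlier days. At D11, 15 of 26 mitotic genes were higher in the shallow class in both libraries and 8 were lower in both, at D28 the numbers were 7 and 12, and at D45 they were 3 and 21. Of the 7 S-phase genes, 0, 1 and 0 were higher in both and 6, 2 and 7 lower in both. The share of all genes higher or lower in both libraries is not given here. With library totals as scaling, edgeR called 20.3, 23.2 and 22.7% of all genes higher in the shallow class on the 3 days, and 4.83, 6.32 and 11.8% lower. PRC1 was higher in shallow barcodes in every library: 29.0 against 12.6 and 19.96 against 14.4 CPM at D11, 14.99 against 11.4 and 15.9 against 7.03 CPM at D28, and 17.8 against 9.67 and 24.4 against 12.3 CPM at D45. It passed the test at D45 (0.68 ± 0.16, edgeR adjusted p = 0.0025), but not without D45 library B (0.63, edgeR adjusted p = 0.087). KIF23, a motor of the central spindle, was also higher in all 6, at 82.1 against 55.4 CPM in D11 A and 37.9 against 25.4 CPM in D28 A, and passed at D28 (0.41 ± 0.14, edgeR adjusted p = 0.040). That call did not hold in 8 of 14 alternatives, and with a limit of 5000 UMIs the difference turned to -0.18 (edgeR adjusted p = 0.28). CDK1 was higher in all 6 as well, with 57.2 against 41.6 CPM in D28 A, and did not pass on any day. The direction depends on the scaling, since the TMM fit put KIF23 and CDK1 at -0.07 and -0.19 at D11.

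Equal levels did not mean equal distributions. When each barcode was thinned at random to 500 UMIs, 44.6 and 55.4% of shallow D11 barcodes in A and B held at least 1 mitotic UMI, against 29.9 and 29.4% of deep ones. At D28 the shares were 24.0 and 16.0% against 9.56 and 8.83%, and at D45 11.3 and 12.6% against 7.32 and 8.48%. Barcodes with 5 or more mitotic UMIs were less common in the shallow class in 5 of 6 libraries: 7.21 against 6.93% in D11 A, 2.88 against 5.82% in D11 B, 0.257 against 1.25% and 0.711 against 1.08% at D28, and 0.498 against 0.938% and 0.737 against 1.33% at D45. This direction depended on the thinning. At 1000 UMIs, which keeps of the shallow class only barcodes of 1000 to under 2000 UMIs, the shares were 15.7 against 13.9% and 13.8 against 12.4% at D11, 2.31 against 2.22% and 2.12 against 2.09% at D28, and 1.26 against 1.58% and 1.69 against 2.25% at D45, so that the shallow class was lower at D45 alone. In D11 B the tenth of shallow barcodes with the most mitotic UMIs held 41.0% of them, against 67.9% in the deep class, and in D11 A 53.1 against 67.4%. All kept barcodes had at least 500 UMIs, so none was left out. The 95% Wilson intervals of the depth classes reached at most 2.39 points to either side at 500 UMIs and 3.70 points with those at 1000 UMIs included. Those of neuron-like barcodes, given next, reached up to 9.39 points with 1000 UMIs included. All cover counting error only.

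**Figure D4:**
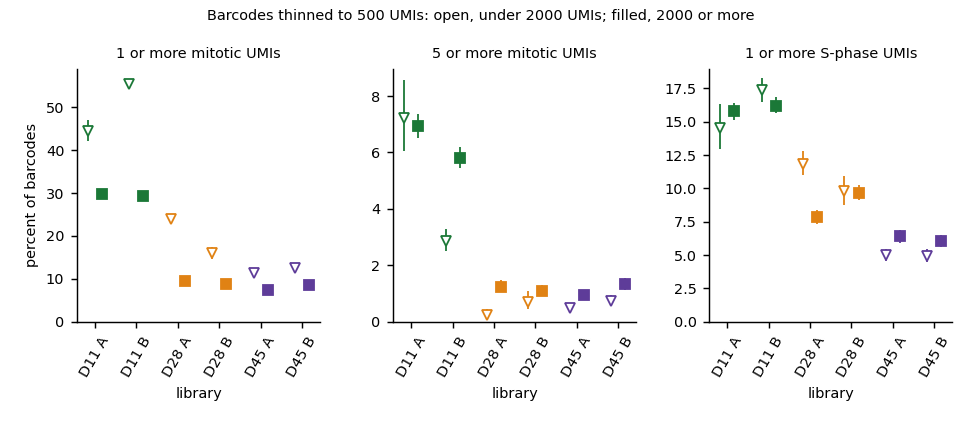
Percent of barcodes with at least 1 mitotic UMI, at least 5 mitotic UMIs and at least 1 S-phase UMI after thinning each barcode to 500 UMIs, by library, with open symbols for barcodes under 2000 UMIs, filled symbols for deeper ones and 95% Wilson intervals as bars. The open symbols are higher in all libraries on the left and lower in 5 of 6 in the middle.

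Neurons do not divide, so neuron-like barcodes served as the class that should lack these transcripts. In the deep class (median 6416 to 12572 UMIs) 8.42 and 10.7% of them held a mitotic UMI after thinning at D11, 5.96 and 5.59% at D28 and 5.54 and 5.92% at D45. In the shallow class (median 717 to 952 UMIs) the shares were 19.6 and 32.1% at D11, 14.1 and 13.6% at D28 and 11.2 and 12.1% at D45. Shallow barcodes of all other classes together were at 47.95 and 56.8% at D11, 25.8 and 19.4% at D28 and 11.4 and 13.6% at D45. They lay above the neuron-like level in both libraries of every day, at D45 by little. The D45 95% intervals overlapped (10.2 to 12.8 against 10.5 to 11.96% in A, and 12.2 to 15.1 against 11.3 to 13.1% in B). These intervals count barcodes within 1 library, so they cannot decide whether the classes differ on a day. For 3 or more mitotic UMIs the other shallow barcodes at D45 were at 1.63 and 2.63% and the neuron-like ones at 0.954 and 0.956%. The source of the UMIs in neuron-like barcodes was not tested. Which shallow barcodes were neuron-like depended on the clustering. With cell cycle genes kept in, 1 cluster of 11512 barcodes at a median of 665 UMIs was left unnamed. Of these, 6014 were in D45 A and 4021 in D45 B. S-phase UMIs were found in 14.5 and 17.4% of shallow and 15.8 and 16.2% of deep D11 barcodes, and in 4.81 to 6.94% of deep D28 and D45 neuron-like barcodes.

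Mitotic and S-phase UMIs met in the same barcodes. Among deep barcodes with 3 or more mitotic UMIs after thinning, 18.5 and 19.3% also held an S-phase UMI at D11, 24.4 and 24.3% at D28, and 29.7 and 19.3% at D45. Among deep barcodes with no mitotic UMI the shares were 12.9 and 13.3% at D11, 7.02 and 8.78% at D28, and 5.95 and 5.32% at D45. The share was higher beside mitotic UMIs in all 6 libraries. Among shallow barcodes this held in 5 of 6: the shares were 15.4 against 13.5% in D11 A, 14.7 against 15.8% in D11 B, 21.4 against 11.5% and 16.7 against 9.30% at D28, and 12.2 against 4.79% and 19.6 against 4.63% at D45. At 1000 UMIs it held in D11 B as well, at 30.7 against 22.9%. Few shallow barcodes had 3 or more mitotic UMIs at 500 UMIs: 247 and 742 at D11, 42 and 42 at D28, and 107 and 107 at D45. No intervals are given for these shares, so small gaps do not decide a direction.

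The classes that carried the mitotic UMIs changed between days. Classes were called from fixed markers on clusters made without cell cycle genes, so their levels are given as a description. At D11 floor-plate-like barcodes (CORIN, FOXA2 and other markers) were at 1875 and 1797 CPM and held 41.0 and 50.6% of the mitotic UMIs. Neural-progenitor-like barcodes were at 2400 and 2046 CPM, but at 694.6 and 865.7 CPM when cell cycle genes were kept in the clustering, and no cluster had that name at a resolution of 0.4. Of the other classes, neuron-like barcodes were at 242.4 and 302.8 CPM, and barcodes of clusters left unnamed, which held 47.9 and 39.7% of the mitotic UMIs, at 3970 and 4092 CPM. At D28 floor-plate-like barcodes were at 436.8 and 252.1 CPM. They were not of the same clusters as at D11: 99.6 and 99.7% of them lay in 1 cluster that held 0 D11 barcodes and was led by IFI6, ISG15 and MX1, genes of the interferon response, while the 4 floor-plate-like clusters of D11 held at most 8 barcodes each of a D28 library. The libraries of D28 differed in the other classes that held mitotic UMIs. Clusters left unnamed held 26.4 and 36.9% of the D28 mitotic UMIs, but 21.9 and 13.2% at a resolution of 0.4, where the astrocyte-like share in D28 B was 29.8% in place of 6.31%. In D28 A, fibroblast-like barcodes were 9.06% of the library and held 42.1% of its mitotic UMIs, at 1736 CPM. In D28 B they were 0.815% of the library and held 2.38%, while oligodendrocyte-like barcodes, 2.43% of it, held 18.7% at 2811 CPM.

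At D45 oligodendrocyte-like barcodes were 8.87 and 8.90% of the libraries, were at 1087 and 1213 CPM and held 37.1 and 28.3% of the mitotic UMIs. Fibroblast-like barcodes held 12.9 and 26.6%, astrocyte-like ones 19.7 and 22.5%, and neuron-like ones 12.4 and 8.43%. Of the S-phase UMIs at D45, neuron-like barcodes held 26.4 and 21.8%. This share depended on the clustering: it was 44.1 and 29.0% at a resolution of 0.4 and 36.6 and 24.2% with cell cycle genes kept in, where neuron-like barcodes were 38.5 and 33.9% of the libraries. The oligodendrocyte-like share of mitotic UMIs was 37.1 and 28.1%, and 36.8 and 28.2%, under the same alternatives. The oligodendrocyte-like class was made of 2 clusters far apart in level. The first, led by OLIG1 and GPR17 of the oligodendrocyte lineage's precursor stages, was at 2365 CPM for mitotic and 469.9 CPM for S-phase genes. The other, led by the myelin genes MBP and MAG, was at 109.9 and 62.2 CPM for mitotic and 75.97 and 78.0 CPM for S-phase genes.

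**Figure D5:**
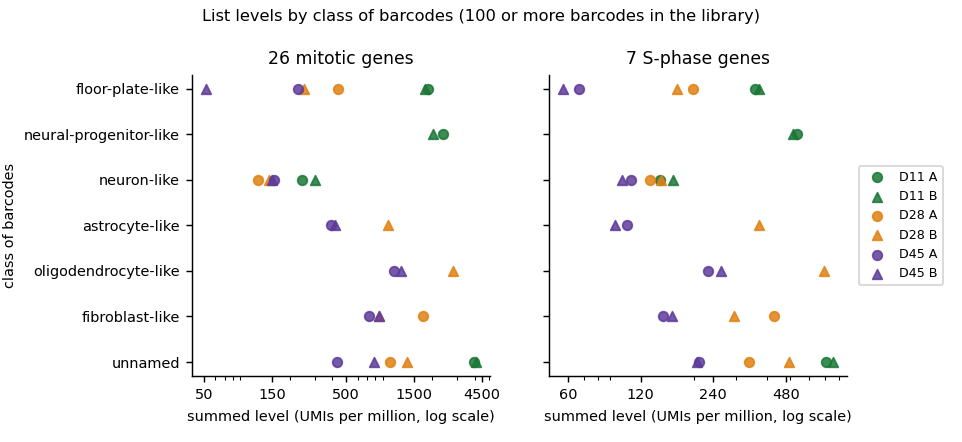
Summed level of the mitotic genes (left) and the S-phase genes (right) in each class of barcodes, in CPM on log axes, for classes with 100 or more barcodes in a library, with colours for days and circles and triangles for libraries A and B. Neuron-like barcodes are between 120.8 and 302.8 CPM for mitotic genes in all 6 libraries, and oligodendrocyte-like barcodes at D45 are at 1087 and 1213 CPM.

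Within deep barcodes, neuron-like ones held the mitotic genes at a median of 0.0785 to 0.158 of the level in all other classes together, and the S-phase genes at 0.204 to 0.488. PRC1 stood apart here too. It was at 5.82 and 6.60 CPM in neuron-like against 13.5 and 15.4 CPM in other barcodes at D11, but at 16.0 and 10.0 against 9.16 and 5.47 CPM at D28 and 12.4 and 13.5 against 8.37 and 11.8 CPM at D45. It was the only one of the 26 mitotic genes that was higher in neuron-like barcodes in any library. The deep neuron-like barcodes belonged to different clusters on the 3 days. A cluster led by GAD2 and DLX5, for example, held 1.61 and 1.33% of them at D11, 1.04 and 31.6% at D28 and 52.2 and 48.4% at D45. A change of PRC1 within 1 kind of neuron-like barcode and a change of the clusters in the class cannot be told apart from these levels. MCM6 and MCM7 were the S-phase genes nearest to even, at 0.819 and 0.779 in D45 A, and MCM3 the farthest, at 0.138.

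One cluster joined low depth with mitotic genes. It held 6207 barcodes, 5031 of them in D11 B, with a median of 622 UMIs, 88.3% under 2000 UMIs, and a mitotic level of 3190 CPM at 7.72 mitotic UMIs per S-phase UMI. Of its barcodes 14.8% were called doublets. It showed under 3 class markers and was left unnamed. A floor-plate-like cluster of 1738 barcodes with a median of 16676 UMIs was higher still, at 6686 CPM, with 7.14 mitotic UMIs per S-phase UMI, and another unnamed cluster of 6447 barcodes had 4123 CPM at a median of 11562 UMIs. The leading genes of the last included OTX1, EMX2 and WNT8B, and those of the second included TOP2A, KIF11 and PBK. A further unnamed cluster of low depth held 3988 barcodes, 3648 of them in D28 A and 281 in D28 B. Its median was 671 UMIs, 95.5% of it lay under 2000 UMIs, and its mitotic level was 728.8 CPM. An unnamed cluster of 721 barcodes, 60.6% of them under 2000 UMIs, was at 629.3 CPM.

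The wider lists of the cell cycle fell with the members. Of a list of 53 other mitotic genes, 45 were tested under 46 gene identifiers, since CDC25C had 2, neither of them called. Of the 46, 40 were lower and 0 higher at D28 and again at D45 against D11, with medians of -2.11 and -2.36, beside 10.6 and 17.4% of all genes called lower. Of 50 tested genes of 57 other replication genes, 42 were lower at D28 and 47 at D45, with medians of -1.16 and -1.92, and 12 were lower and 0 higher between D28 and D45 (median -0.58). That count was 21 with DESeq2 (median -0.55, beside 10.6% of the genes with an adjusted p) and 1 of 48 in barcodes under 2000 UMIs (median -0.80, beside 0.237% of all genes). With the library letter as a replicate block edgeR called 0, at a median of -0.57 and beside 1.33% of all genes, and 24 had an unadjusted p under 0.05, beside 24.9%. The median differences were thus about as large or larger where fewer were called. Of the 46 other mitotic identifiers, 2 were lower and 1 higher between D28 and D45, beside 4.93 and 4.47% of all genes. The largest falls at D45 were those of KIFC1, CDCA5 and CDCA8 (-3.30, -3.15 and -3.15) and of E2F8, ORC1 and EXO1 (-3.12, -3.01 and -2.90). KIFC1 is a spindle motor, CDCA5 protects cohesin, CDCA8 belongs to the passenger complex, E2F8 represses E2F targets, ORC1 marks origins and EXO1 trims DNA ends. CDCA8 was at 32.5 and 29.0 CPM at D11, 8.70 and 5.19 CPM at D28 and 3.85 and 5.29 CPM at D45.

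Genes of G1 and of cell cycle exit divided. Of 20 tested of 23 listed, 6 were lower and 7 higher at D45 than at D11, beside 17.4 and 17.3% of all genes. CCND1, the D cyclin of many progenitors, was at 213.6 and 202.6 CPM at D11, 87.3 and 84.9 CPM at D28 and 60.3 and 66.3 CPM at D45 (-2.12). RBL1, a pocket protein, fell by 1.60. CCND3 rose from 21.8 and 23.4 CPM to 60.2 and 56.0 CPM at D45 (0.95), and the inhibitors CDKN2D and CDKN2B were higher (2.40 and 3.47) but at most at 5.19 CPM in any library.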

How the data were processed

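Single-cell 3′ libraries (10x GEM-X) were made from 6 organoid samples, 2 per day. The deposited matrices hold raw UMI counts per gene and barcode, which the authors made with Cell Ranger on the Sscrofa11.1 build. The submitters' processing notes also name Seurat 4.3.0. Of 104820 barcodes, 102940 with 200 to 7000 genes and at most 10% mitochondrial UMIs were kept, where the series design states 103310 cells. Kept libraries held 106805311 to 180034791 UMIs. Doublets were called and kept, and removed as an alternative.

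Counts were summed per library, or per library and depth class, and tested with edgeR 4.0.16 (TMM, quasi-likelihood, Benjamini-Hochberg over all genes tested, R 4.3.3). DESeq2 1.42.0 was an alternative. On simulated counts for D45 against D11, 47 of 50 genes lowered to 0.25 and 16 of 50 lowered to 0.5 were called among 21962. Barcodes were clustered in scanpy 1.11.5 on 1993 variable genes without cell cycle genes (30 components, 20 neighbours, Leiden resolution 0.8) and named from fixed markers, so class names were rebuilt here. Shares came from barcodes thinned to 500 UMIs, with Wilson 95% intervals; intervals cover counting error only. All members were described, and of each wider list the 3 genes with the largest rises and the 3 with the largest falls past the threshold were named, except 1 that is not reported here. The members and lists were chosen with earlier results of these data known. Library totals as scaling and further alternatives for the difference between days were chosen after seeing the data. P-values measure the spread between 2 libraries per day, from 1 cell line.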

Additional observations from a re-analysis of the deposited data

Results flagged for a closer look

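The difference of CENPE between shallow and deep barcodes was larger at D45 than at D28 by -0.93 on the log2 scale (edgeR adjusted p = 0.0366 in a test of the difference itself). Over 14 alternatives its adjusted p ran from 0.00216 to 0.275, and 11 passed. NUSAP1, found only by its gene identifier, had 269877 UMIs in the kept barcodes, more than any of the 33 genes found by symbol. The 1880 barcodes outside the filters, 978 of them over the gene limit, held 65234 mitotic and 10745 S-phase UMIs and entered only the alternatives that used every deposited barcode.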

How the results depend on the processing

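Leaving out 1 library at a time gave 17 to 33 members lower in D28 against D11, 0 to 19 in D45 against D28 and 26 to 33 in D45 against D11. In the shallow against the deep class it gave 8 to 22 members lower at D11, 6 to 15 at D28 and 14 to 28 at D45, and for the difference between days 0 to 1, 0 to 3 and 0 to 2. The share of all genes called in these fits is not given here, so the counts are not read as results about the members. A day left with 1 library was assumed to vary like the others.

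The count of 4 for D45 against D28 was 2 with library totals, 2 in deep barcodes and 0 in shallow ones. Library letters did not pair the samples (correlations of deviations -0.298, 0.0412 and -0.185); with the letter as a replicate block that count was 1, at the same median (-0.34) and beside 1.33% of all genes in place of 4.93%, and the other day counts were 30 and 32.

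In the shallow against the deep class, DESeq2 gave 10 (D11) and 7 (D28), library totals 2, 1 and 16, and a limit of 1000 UMIs 3, 6 and 14. At D28 a limit of 5000 UMIs gave 30 and every deposited barcode 21. With the 5000 limit KIF23 at D28 turned to -0.18. The share of all genes called is not given here for the alternatives of the difference between days that follow. D28 against D11 gave 10 with the limit of 5000. D45 against D28 gave 2 with library totals and 0 with the limit of 1000. D45 against D11 gave 1 with DESeq2, with no filter on low counts or with at most 5% mitochondrial UMIs, 2 with DESeq2 size factors, 3 with library totals or every deposited barcode, and 6 with the limit of 5000. The causes were not tested.

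Without the top member of each list the ratio was 6.41, 3.86 and 4.51. Thinned to 1000 UMIs, which leaves out the shallow barcodes under 1000 UMIs, mean shares on the 3 days were 60.3, 28.0 and 17.8% (mitotic, shallow), 39.5, 15.1 and 12.7% (mitotic, deep), 25.99, 16.7 and 9.83% (S-phase, shallow) and 26.5, 15.9 and 11.5% (S-phase, deep). Of 544 alternatives for single genes in D28 against D11, 502 kept direction and side of the threshold and none turned.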
